A study of Mus musculus with 6 samples.

Results

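Collagens and laminins are the chains of the extracellular fibrils, networks and basement membranes that wrap the developing brain and its vessels, and their genes were followed here in the dorsal forebrain of individual mouse embryos of stage E11.5, at mid-gestation. A gene was taken if its symbol in the authors' deposited table was Col, a number, a and a number, or began with Lama, Lamb or Lamc and a number. That rule found 44 genes, 33 collagens and 11 laminins, among 17461 gene symbols of the table. Of the 44, 19 were found by the table's column of current symbols and 25 through its second symbol column, that of the array maker. The rule uses names and no measured value, and it assigns no gene to a cell type.

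RNA of 6 embryos was measured on Agilent 1-colour arrays, 3 called control and 3 called mutant by the labels. The labels do not name the mutated gene, the allele or the strain, and the series title places the study in Wnt/beta-catenin signalling and the order of cortical cell fates. Mice were time-mated, and per the design text the dorso-medial pallium was dissected from each brain. Control 1 and mutant 1 were littermates, as were control 2 and mutant 2, and control 3 and mutant 3, so that each mutant was also compared with the control of its own litter.

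Collagen chains assemble in threes into fibrils, such as type I and type III, or into sheets, such as type IV, which is the scaffold of basement membranes. Laminins are trimers of an alpha, a beta and a gamma chain, and they bind cells to the basement membrane through integrins and dystroglycan. Around the early forebrain the pial basement membrane separates the neuroepithelium from the meninges, and fibroblasts of the meninges, endothelium and pericytes are major makers of these chains, while some laminin and collagen genes are also active in neuroepithelial cells. In whole tissue, fewer cells of a type and less RNA per cell cannot be told apart.

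A level is given on the log2 scale, as the processed signal of a probe divided by the 75th percentile of its array, and a difference is mutant minus control on the same scale, with its standard error (SE) from the fit over all genes. The 6 arrays had 65.75% to 70.1% of spots well above background, none saturated, and 75th percentiles of 1446.2 to 1833.2 in the controls and 1206.9 to 1380.2 in the mutants. The number of arrays limits the precision. Litter 1 lay on slide 1 and litters 2 and 3 on slide 2, so a value within litter 1 is also a value within slide 1, and litter 1 and slide 1 cannot be told apart. All 12 dorsal forebrain markers, Pax6 among them, were well above background on all 6 arrays. So were 19 of 20 markers of meninges and head mesenchyme and 17 of 17 of endothelium, and the 20th mesenchyme marker, Aldh1a2, was above background on 5 arrays.

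Of the 44 genes 43 were measured, all well above background on each of the 6 arrays. The exception was Lamb3, the beta chain of the epithelial laminin-332, whose probe was above background on 2 arrays and which was left out. None of the 43 reached an adjusted p under 0.05 when p-values were adjusted over every row (limma, 0 of 43, against 7 of 21068 rows, 0.0332%). The smallest adjusted p among them was 0.105, for Col20a1. Before adjustment, 9 of the 43 were higher in the mutants with p under 0.05 (20.9%, where 9.5% of all rows were) and 1 was lower (2.33%, where 7.44% were), 10 in all (23.3%, where 16.9% were). Among the 9 were Col4a5, Col4a6, Col5a3, Col9a3, Col12a1, Col20a1, Col25a1 and Lamb2, and the lower gene was Lama5. All 3 mutants lay above all 3 controls for 10 genes (23.3%, against 13% of all rows), and all 3 lay below for Lama5 alone (2.33%, against 11.9%). The 10 above comprised Col11a1, Col5a2 and the higher genes just named. With litter as a block, 0 of 21068 rows passed the adjusted threshold, and of the 43 genes 7 were higher (16.3%, where 12.3% of all rows were) and 2 lower (4.65%, where 7.55% were) before adjustment, the second lower gene being Col27a1. Col4a6 (unadjusted p = 0.0526) and Col5a3 (unadjusted p = 0.0636) were the genes no longer under 0.05 with the block.

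Of the 43 genes 30 had a positive difference (69.8%, where 55% of all rows had). The median difference over the 43 genes was 0.13, against 0.02 over all rows tested. It was 0.36 in litter 1 and -0.02 in each of litters 2 and 3, where the medians of all rows were 0.01, 0.01 and 0.04. The collagens had a median of 0.17, with 0.44, 0.00 and -0.01 in litters 1, 2 and 3. The laminins had a median of -0.01, with 0.20, -0.11 and -0.32. The positive medians were thus those of litter 1.

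**Figure D1:**
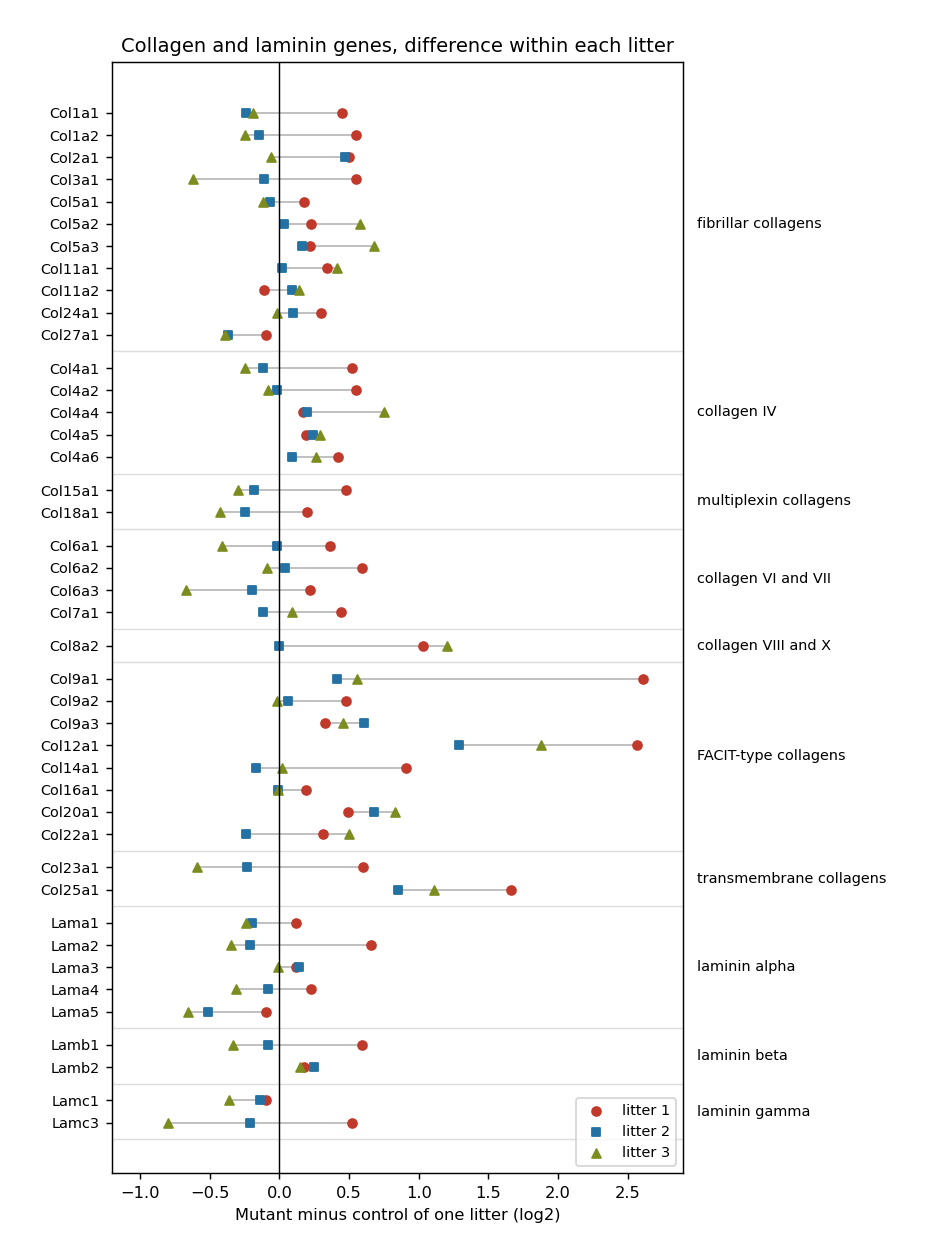
Each row is a collagen or laminin gene, grouped by class, and each point is the log2 level of the mutant minus that of the control of the same litter (red circles litter 1, blue squares litter 2, green triangles litter 3; no error bars, since a litter holds 1 embryo of each group). Of all 43 genes measured, of which 1 is not drawn, 39 had a litter 1 difference above 0, against 20 in litter 2 and 18 in litter 3, and Col12a1 and Col25a1 lie far to the right in all 3 litters.

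Promoter sequence from RefSeq (GRCm38.p6) was matched by symbol for 31 of the 44 genes, in 35 windows of the 250 bases before a start site. The stretch where the starts of Col4a1 and Col4a2 meet is shown first, and whole windows follow for some of the genes on which the results turn: Col1a2 as a fibrillar gene with opposite differences between litters, Col25a1 and Col20a1 as genes higher in every litter, and Lama5 as the gene lower in every mutant. The annotated starts of Col4a1, on the minus strand, and Col4a2, on the plus strand, face each other so that their transcripts overlap by 22 bases at their 5′ ends, at chr8:11312805-11312826, given here on the plus strand. The windows are chr6:4505368-4505617 (plus strand, Col1a2), chr3:130180595-130180844 (plus strand, Col25a1), chr2:180986285-180986534 (plus strand, Col20a1) and chr2:180225860-180226109 (minus strand, Lama5), each written 5′ to 3′ along its gene. Capitals mark a match to CCAAT, the box bound by nuclear factor Y, or to the TCF/LEF core written as CTTTGAA or alternatively as CTTTGAT, or with its last bases changed as CTTTGTA or alternatively as CTTTGTT, searched on both strands.
Col4a1 and Col4a2, shared 5′ ends: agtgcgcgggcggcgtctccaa
Col1a2: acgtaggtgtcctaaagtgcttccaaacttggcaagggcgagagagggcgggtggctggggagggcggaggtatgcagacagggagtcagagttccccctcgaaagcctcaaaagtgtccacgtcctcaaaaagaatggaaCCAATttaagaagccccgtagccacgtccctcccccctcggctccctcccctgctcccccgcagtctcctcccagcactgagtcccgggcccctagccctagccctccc
Col25a1: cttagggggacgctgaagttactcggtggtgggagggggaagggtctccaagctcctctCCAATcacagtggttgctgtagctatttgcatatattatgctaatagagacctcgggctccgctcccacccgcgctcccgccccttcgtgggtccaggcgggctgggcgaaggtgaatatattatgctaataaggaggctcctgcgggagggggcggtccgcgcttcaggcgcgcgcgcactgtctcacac
Col20a1: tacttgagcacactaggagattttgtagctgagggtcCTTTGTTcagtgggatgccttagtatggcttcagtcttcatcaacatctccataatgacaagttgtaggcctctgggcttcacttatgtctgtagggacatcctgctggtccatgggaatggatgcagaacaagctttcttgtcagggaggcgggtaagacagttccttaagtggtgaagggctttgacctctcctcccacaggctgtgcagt
Lama5: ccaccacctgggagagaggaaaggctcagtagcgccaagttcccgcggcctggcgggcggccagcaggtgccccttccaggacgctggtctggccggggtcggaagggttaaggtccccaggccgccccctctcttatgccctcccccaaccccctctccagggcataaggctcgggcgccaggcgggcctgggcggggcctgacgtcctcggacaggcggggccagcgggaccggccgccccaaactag
The first base of the CCAAT match lay 109 bases before the start of Col1a2 and 191 before that of Col25a1. The windows of Col4a1 and Col4a2, which are not printed, also held a CCAAT match each, 145 and 32 bases before the start, and the CTTTGTT match lay 213 bases before the start of Col20a1. Lama5 held neither motif in its window. CCAAT was found in 12 of the 35 windows (34.3%), against 33.8% of all 32851 windows of the table, and the TCF/LEF core in 5 (14.3%), against 14.8%. No window of these genes held both motifs. A match describes letters of the window and no binding was measured.

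The fibrillar collagens build the fibrils of meninges, dermis and cartilage, and 11 were measured, with a median difference of 0.05. In litters 1, 2 and 3 the class medians were 0.30, 0.02 and -0.06. Col1a1, a chain of type I collagen, was at 2.41, 1.70 and 1.30 in controls 1, 2 and 3, against 2.86, 1.47 and 1.11 in mutants 1, 2 and 3. Both embryos of litter 1 were the highest of their groups, and the groups overlapped. The difference of 0.01 (SE 0.52, limma, adjusted p = 0.995) joined 0.45 in litter 1 with -0.24 and -0.19 in litters 2 and 3. Col1a2, the other chain of type I, followed the same order at 3.58, 3.01 and 2.71 in the controls and 4.13, 2.86 and 2.46 in the mutants, with litter differences of 0.55, -0.15 and -0.25. Without litter 1, a choice made after seeing the data, the differences of Col1a1 and Col1a2 were -0.21 and -0.20.

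Col3a1, the type III chain found in vessel walls and in the meninges, where it is a ligand of the receptor Adgrg1 on radial glia endfeet, was at 2.64, 2.55 and 2.42 in the controls, against 3.19, 2.44 and 1.79 in the mutants. The controls lay within a narrow range (SD 0.11) and the mutants on both sides of it (SD 0.70), with litter differences of 0.55, -0.11 and -0.62. Col5a2, a type V chain that helps to start type I fibrils, was at -1.68, -1.57 and -2.14 in the controls, against -1.45, -1.54 and -1.56 in the mutants. All mutants were above all controls, by 0.03 in litter 2 and 0.58 in litter 3, and the difference was 0.28 (SE 0.16, limma, adjusted p = 0.422). Col5a3, another type V chain, was at -5.23, -5.22 and -5.57 in the controls, against -5.01, -5.06 and -4.89 in the mutants. The groups did not overlap, and the difference of 0.35 (SE 0.12, limma, unadjusted p = 0.0278, adjusted p = 0.245; unadjusted p = 0.0636 with litter as a block) was 0.09 with normexp background correction.

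Col11a1, a type XI chain that copolymerises with type II in cartilage and is also made outside it, was at -1.80, -1.83 and -1.93 in the controls, against -1.46, -1.80 and -1.52 in the mutants. Mutant 2 was level with control 1 to 2 decimals and the other mutants were above all controls, and the difference was 0.26 (SE 0.11, limma, adjusted p = 0.316). Col2a1, the chain of type II collagen, known from cartilage and from early neuroepithelium, was at 3.32, 3.21 and 3.43 in the controls, against 3.81, 3.68 and 3.37 in the mutants. Mutants 1 and 2 were above all controls and mutant 3 was within their range, with a difference of 0.30 (SE 0.13, limma, adjusted p = 0.333). The other 4 fibrillar genes differed by -0.01 (Col5a1), 0.04 (Col11a2), 0.13 (Col24a1) and -0.29 (Col27a1), and Col27a1 was the only collagen lower in the mutant of every litter (-0.10, -0.37 and -0.39).

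Type IV collagen is the network of all basement membranes, and its Col4a1 and Col4a2 chains assemble together. Col4a1 was at 1.27, 1.62 and 1.47 in controls 1, 2 and 3, against 1.79, 1.5 and 1.22 in mutants 1, 2 and 3, and Col4a2 at 1.36, 1.58 and 1.39 and at 1.91, 1.57 and 1.31. For both genes mutant 1 was the highest and mutant 3 the lowest of all 6 embryos. The litter differences ran side by side, at 0.52, -0.12 and -0.25 for Col4a1 and 0.55, -0.02 and -0.08 for Col4a2. The mean differences were 0.05 (SE 0.17, limma, adjusted p = 0.903) and 0.15 (SE 0.17, limma, adjusted p = 0.679).

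On their brightest probes, the chains of the other type IV networks had differences of the same sign in all 3 litters. Col4a5 was at -1.41, -1.38 and -1.56 in the controls, against -1.22, -1.14 and -1.27 in the mutants. All mutants were above all controls, by 0.19, 0.24 and 0.29 within litters, and the difference was 0.24 (SE 0.08, limma, unadjusted p = 0.027, adjusted p = 0.243). Col4a6, its neighbour on the X chromosome, was at -2.51, -2.21 and -2.38 in the controls, against -2.09, -2.11 and -2.12 in the mutants. The mutants again lay above the controls, with a difference of 0.26 (SE 0.09, limma, unadjusted p = 0.0354, adjusted p = 0.265; unadjusted p = 0.0526 with litter as a block). A second probe of Col4a6 differed by 0.13, with 0.30, -0.01 and 0.11 by litter. With the mean of its probes the difference was 0.20 and the groups overlapped. Col4a4 was at -5.91, -5.5 and -5.95 in the controls, against -5.74, -5.30 and -5.20 in the mutants, where the groups overlapped and the difference of 0.37 (SE 0.19) was 0.01 with normexp. A second probe of Col4a4, above background on 5 arrays, gave -0.28, 0.35 and -0.31 by litter.

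The multiplexins, types XV and XVIII, are proteoglycans of vascular and epithelial basement membranes, and type XVIII is the source of endostatin. Col18a1 was at 3.03, 3.22 and 3.29 in the controls, against 3.23, 2.97 and 2.86 in the mutants. Mutants 2 and 3 were below all controls and mutant 1 was within their range, and the difference was -0.16 (SE 0.13, limma, adjusted p = 0.549). Col15a1 was at -5.42, -5.54 and -5.47 in the controls, against -4.94, -5.72 and -5.77 in the mutants, with mutant 1 above and mutants 2 and 3 below every control. Its litter differences of 0.48, -0.18 and -0.30 cancelled to a mean of 0.00 (SE 0.23).

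Type VI collagen forms beaded microfibrils around mesenchymal cells. Col6a1 was at -1.25, -1.49 and -1.76 in the controls, against -0.89, -1.52 and -2.17 in the mutants, and Col6a3 at -1.62, -2.17 and -2.40 and at -1.39, -2.37 and -3.07. Mutant 1 was the highest and mutant 3 the lowest embryo for both, with litter differences of 0.36, -0.02 and -0.41 for Col6a1 and 0.22, -0.20 and -0.67 for Col6a3. Col6a2 was at -2.87, -3.07 and -3.28 in the controls, against -2.28, -3.02 and -3.37 in the mutants, with mutant 1 again the highest and mutant 3 the lowest. The 3 mean differences were -0.02 (SE 0.34) for Col6a1, 0.18 (SE 0.29) for Col6a2 and -0.21 (SE 0.45) for Col6a3. Col7a1, the chain of anchoring fibrils under epithelia, was at -1.19, -1.15 and -1.34 in the controls, against -0.75, -1.27 and -1.25 in the mutants, a difference of 0.14 (SE 0.16) in which mutant 1 alone stood above the controls.

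Col8a2, a short-chain network collagen of endothelial basement membranes, had the widest spread of controls among the measured genes. It was at -1.94, -2.38 and -3.86 in the controls, against -0.91, -2.38 and -2.66 in the mutants, so that the groups overlapped. The difference of 0.75 (SE 0.66, limma, adjusted p = 0.600) was 1.03, 0.00 and 1.20 within litters.

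The FACIT-type collagens sit on the surface of fibrils and do not form fibrils themselves. All 8 measured had positive differences, with a median of 0.36 and medians of 0.49, 0.24 and 0.48 in litters 1, 2 and 3. Col12a1, which coats type I fibrils in dense connective tissue, had the largest difference of the 43 genes. It was at -5.88, -5.39 and -6.66 in the controls (mean -5.98 ± 0.64, SD, n = 3), against -3.31, -4.11 and -4.78 in the mutants (mean -4.06 ± 0.74, SD, n = 3). Every mutant was above every control, by 2.57, 1.29 and 1.88 within litters. The difference of 1.91 (SE 0.47, a 3.77-fold ratio) had an unadjusted p of 0.00704 and, over all rows, an adjusted p of 0.186 (limma), above the threshold. With normexp it was 0.81, and it was 1.18 with the log2 values of the authors' deposited table.

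Col20a1, a FACIT-like chain first described in embryonic cartilage, tendon and cornea, was at -6.16, -6.13 and -6.22 in the controls, against -5.67, -5.45 and -5.38 in the mutants. The controls were nearly equal and all mutants lay above them. The difference of 0.67 (SE 0.10, limma, unadjusted p = 0.00051, adjusted p = 0.105) was 0.15 with normexp and 0.30 with the log2 values of the authors' deposited table. Col9a3, a chain of type IX collagen on cartilage fibrils, was at -6.45, -6.24 and -6.57 in the controls, against -6.12, -5.63 and -6.11 in the mutants. The groups did not overlap, with a difference of 0.47 (SE 0.17, limma, unadjusted p = 0.0318, adjusted p = 0.256) that was 0.09 with normexp. Its partner chain Col9a1 was at -4.53, -4.47 and -5.21 in the controls, against -1.92, -4.06 and -4.65 in the mutants. Mutant 1 stood far above the other 5 embryos, and the difference of 1.19 (SE 0.72, limma, adjusted p = 0.448) was 2.61, 0.41 and 0.56 within litters. The other 4 genes of this class, Col9a2, Col14a1, Col16a1 and Col22a1, differed by 0.06 to 0.25.

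The transmembrane collagens have a cell-surface anchor and a collagenous ectodomain that can be shed. Col25a1, which neurons make and whose ectodomain is found in amyloid plaques, was at -5.31, -4.15 and -4.88 in the controls (mean -4.78 ± 0.59, SD, n = 3), against -3.66, -3.30 and -3.77 in the mutants (mean -3.58 ± 0.25, SD, n = 3). Every mutant was above every control. The litter differences were 1.66, 0.85 and 1.11, and their mean of 1.21 (SE 0.31, a 2.31-fold ratio) had an unadjusted p of 0.00875 and an adjusted p of 0.190 (limma). It was 0.61 with normexp and 0.50 on a second probe of the gene. Col23a1 was at -2.47, -2.53 and -2.65 in the controls, against -1.86, -2.76 and -3.24 in the mutants, with mutant 1 above and mutants 2 and 3 below all controls and a difference of -0.07 (SE 0.34).

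Among the laminin alpha chains, Lama5, a chain of most adult basement membranes and of vessels, was the only gene of the 43 with all mutants below all controls. It was at -0.11, 0.03 and 0.18 in controls 1, 2 and 3 (mean 0.03 ± 0.14, SD, n = 3), against -0.21, -0.47 and -0.49 in mutants 1, 2 and 3 (mean -0.39 ± 0.16, SD, n = 3). Control 1 and mutant 1 lay close together and the other litters were farther apart, at -0.10, -0.51 and -0.66. The difference of -0.42 (SE 0.12, limma, unadjusted p = 0.0124, adjusted p = 0.203) was -0.43 with normexp and -0.45 with the log2 values of the authors' deposited table. Lama1, the alpha chain of the early embryonic laminin-111 and of the pial basement membrane, was at 2.92, 2.95 and 3.12 in the controls, against 3.04, 2.75 and 2.88 in the mutants. Mutants 2 and 3 were below all controls and mutant 1 was within their range, with a difference of -0.10 (SE 0.10, limma, adjusted p = 0.652).

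Lama4, the alpha chain of endothelial basement membranes, was at -0.90, -0.59 and -0.69 in the controls, against -0.67, -0.67 and -1.0 in the mutants. Mutants 1 and 2 lay within the control range and mutant 3 below it, and the difference was -0.05 (SE 0.13). Lama3, the alpha chain of laminin-332, was at -4.91, -4.44 and -4.34 in the controls, against -4.79, -4.29 and -4.35 in the mutants, an overlap with a difference of 0.09 (SE 0.21) that was -0.02 with normexp. Lama2, the alpha chain of muscle and nerve laminins, differed by 0.03 (SE 0.32), from 0.66 in litter 1 to -0.21 and -0.35 in litters 2 and 3.

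Of the beta chains, Lamb2, found in pial, vascular and synaptic basement membranes, had close values within each group. It was at 0.26, 0.20 and 0.30 in the controls, against 0.44, 0.45 and 0.46 in the mutants. The groups did not overlap, and the difference of 0.20 (SE 0.06, limma, unadjusted p = 0.0245, adjusted p = 0.234) was 0.19 with normexp. Lamb1, the beta chain of laminin-111, was at 1.63, 1.88 and 1.80 in the controls, against 2.22, 1.81 and 1.47 in the mutants. Mutant 1 was the highest and mutant 3 the lowest embryo, with litter differences of 0.59, -0.08 and -0.33 that are close to those of Col4a1.

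Lamc1, the gamma chain of most laminins, was at 2.07, 2.23 and 2.17 in the controls, against 1.96, 2.09 and 1.81 in the mutants. It was lower in the mutant of every litter, though mutant 2 was above control 1, and the difference was -0.20 (SE 0.10, limma, adjusted p = 0.363). Lamc3, a gamma chain known from pial and vascular basement membranes of the cortex, was at -1.24, -0.89 and -1.0 in the controls, against -0.72, -1.10 and -1.80 in the mutants, with litter differences of 0.52, -0.21 and -0.80.

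**Figure D2:**
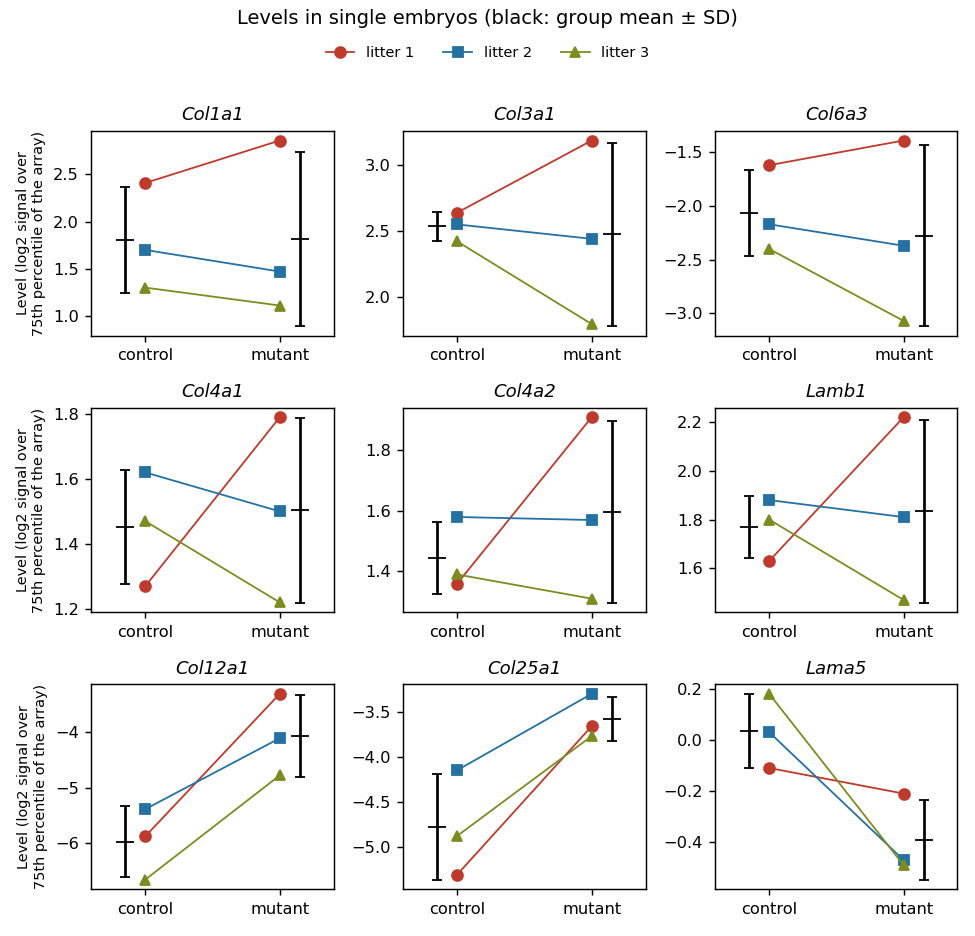
Levels of 9 genes in each embryo (log2 of the signal over the array's 75th percentile), with littermates joined by a line and black marks for the mean ± SD of each group (n = 3 embryos). The vertical axes differ between genes and do not start at 0; in the upper 6 panels mutant 1 is the highest embryo, and the groups do not overlap for Col12a1, Col25a1 and Lama5.

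A split between litters was the most common pattern. Higher in the mutant of litter 1 and lower in the mutants of litters 2 and 3 were 17 of the 43 genes (39.5%), against 11.7% of all rows. They were 12 collagens (Col1a1, Col1a2, Col3a1, Col4a1, Col4a2, Col5a1, Col6a1, Col6a3, Col15a1, Col16a1, Col18a1 and Col23a1) and 5 laminins (Lama1, Lama2, Lama4, Lamb1 and Lamc3). This pattern was chosen after its values were seen and was given no test. Higher in every litter were 14 genes (32.6%, against 26.1% of all rows), and lower in every litter were 3 (6.98%, against 21.3%), namely Col27a1, Lama5 and Lamc1.

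Mutant 1 was the highest of all 6 embryos for 26 of the 43 genes (60.5%, against 19.4% of all rows). For 13 genes the embryo of litter 1 was the highest in both groups (30.2%, against 16.1% of all rows), and all 13 were collagens (Col1a1, Col1a2, Col3a1, Col5a1, Col6a1, Col6a2, Col6a3, Col8a2, Col11a1, Col15a1, Col16a1, Col23a1 and Col27a1). None of the 10 laminins showed this, and for 3 laminins, Lama2, Lamb1 and Lamc3, mutant 1 was the highest embryo. The summed linear level of the 43 genes was 71.1, 67.3 and 65.5 in controls 1, 2 and 3 and 93.4, 65.6 and 55.4 in mutants 1, 2 and 3. The mutants thus lay on both sides of the controls, with mutant 1 above and mutant 3 below them.

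Markers of cell types were read in the same way, by litter. The 20 markers of meninges and head mesenchyme, all measured, had median differences of 0.91, -0.26 and -0.21 in litters 1, 2 and 3, and 10 of the 20 were higher in litter 1 and lower in the others, where 11.7% of all rows were. Their summed linear level was 44.2 to 54.9 in the controls and 43.3 to 51.1 in the mutants, and without the brightest gene, Crabp2, it was 2.76 to 3.54 in the controls and 6.55, 2.65 and 2.17 in mutants 1, 2 and 3. Foxc1, a transcription factor that meninges need to form, was at -0.65, -0.66 and -0.80 in the controls, against 0.37, -0.97 and -1.19 in the mutants, and Twist1, a factor of cranial mesenchyme, at -3.33, -3.61 and -4.23 and at -1.5, -3.74 and -4.48. For both, which were chosen after their values were seen, mutant 1 was above and mutants 2 and 3 were lower than their littermates. The genes of smallest p in the list did not have this split. Prrx1, a mesenchymal homeobox factor, differed by -0.42 (limma, unadjusted p = 0.0419, adjusted p = 0.280), with -0.10, -0.61 and -0.55 in litters 1, 2 and 3. Cyp1b1, a cytochrome P450 of mesenchyme, differed by -0.45 (-0.09, -0.18 and -1.09 by litter) and Tfap2b, a neural crest factor, by 0.49 (1.11, -0.24 and 0.59), both at unadjusted p above 0.05. No defining marker of the list was below background on all arrays.

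The 17 endothelial markers had median differences of 0.37, -0.13 and -0.41 in litters 1, 2 and 3, and 12 of the 17 were higher in litter 1 and lower in the others. Their summed linear level was 24 to 28.6 in the controls and 30.8, 24.7 and 20.7 in mutants 1, 2 and 3. Those of smallest p, Tek, a receptor of angiopoietins, Cldn5, a tight junction protein, and Ramp2, a co-receptor of adrenomedullin, differed by -0.34, -0.24 and -0.24, all at unadjusted p above 0.05. The 13 markers of pericytes and smooth muscle did not show the split: their medians were near 0, at 0.09, 0.06 and 0.02, and 2 of the 13 were higher in litter 1 and lower in the others. In that list Des, a muscle filament gene, differed by -0.84 (limma, adjusted p = 0.145), or -0.12 with normexp background correction. Cspg4, a proteoglycan of pericytes, differed by 0.31 and Anpep, an aminopeptidase, by -0.29. No marker of these 3 lists passed the test over all genes (limma), and those at an unadjusted p under 0.05 were Prrx1 and Des, which was above background on 3 arrays. The part of these cell types in the collagen and laminin differences was not tested.

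Median differences above 0 in litter 1 and below 0 in litters 2 and 3 were also found for cartilage and bone, surface ectoderm and choroid plexus. Of 11 cartilage and bone symbols, older names included, 6 were measured, with litter medians of 0.29, -0.39 and -0.39. Of the 6, 3 (Matn3, Comp and Snorc) were below background on at least 1 array. The summed level of the 6 was 0.358 to 0.446 in the controls and 0.676, 0.280 and 0.216 in mutants 1, 2 and 3. Litter medians were 0.23, -0.04 and -0.65 for 9 surface ectoderm markers, 0.60, -0.05 and -0.09 for 7 of choroid plexus, 0.00, -0.48 and -0.27 for 13 of microglia and macrophages, and 0.19, 0.01 and -1.0 for 9 of erythroid cells. Higher in litter 1 and lower in the others were 2 of the 6 cartilage and bone markers, 3 of the 9 of surface ectoderm and 1 of the 7 of choroid plexus. So were 7 of the 13 of microglia and macrophages and 2 of the 9 of erythroid cells. Single genes of these lists lay apart from their medians. Grhl3, a transcription factor of surface ectoderm, differed by -1.16 (SE 0.17, limma, unadjusted p = 0.00048, adjusted p = 0.105) and was lower in every litter, while Trp63, an epidermal factor, differed by 0.20 and Krt8, a keratin, by 0.72. Enpp2, a secreted enzyme of choroid plexus, differed by -0.73 (limma, adjusted p = 0.235). Clic6 and Folr1, also markers of choroid plexus, differed by 1.54 (2.46, 2.21 and -0.05 by litter) and 1.48 (3.11, 2.91 and -1.59). Neither had the same sign in all 3 litters, and both were at unadjusted p above 0.05. Snorc, Bglap and Hapln1 of the cartilage and bone list differed by -0.75, 0.32 and -0.27. Cd68, C1qa and Ptprc of the macrophage list differed by -0.18, -0.26 and -0.51, and Alas2 and Hba-a1 of the erythroid list by -0.48 and -0.36. With normexp, Snorc was at -0.15, Bglap at 0.00 and Hapln1 at -0.21.

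The 12 dorsal forebrain markers had medians of 0.00, 0.13 and 0.27 in litters 1, 2 and 3, with members on both sides, 6 higher and 4 lower in every litter. Emx2, a homeobox factor of cortical patterning, differed by -0.92 (SE 0.10, limma, unadjusted p = 9.5e-05, adjusted p = 0.0693), with -0.76, -0.84 and -1.18 by litter. Lhx2, a LIM homeobox factor of cortical progenitors, differed by -0.58 (SE 0.09, limma, adjusted p = 0.105), and Pax6, a factor of radial glia, by 0.33 (SE 0.09, limma, adjusted p = 0.198). None of the 12 had the litter split.

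**Figure D3:**
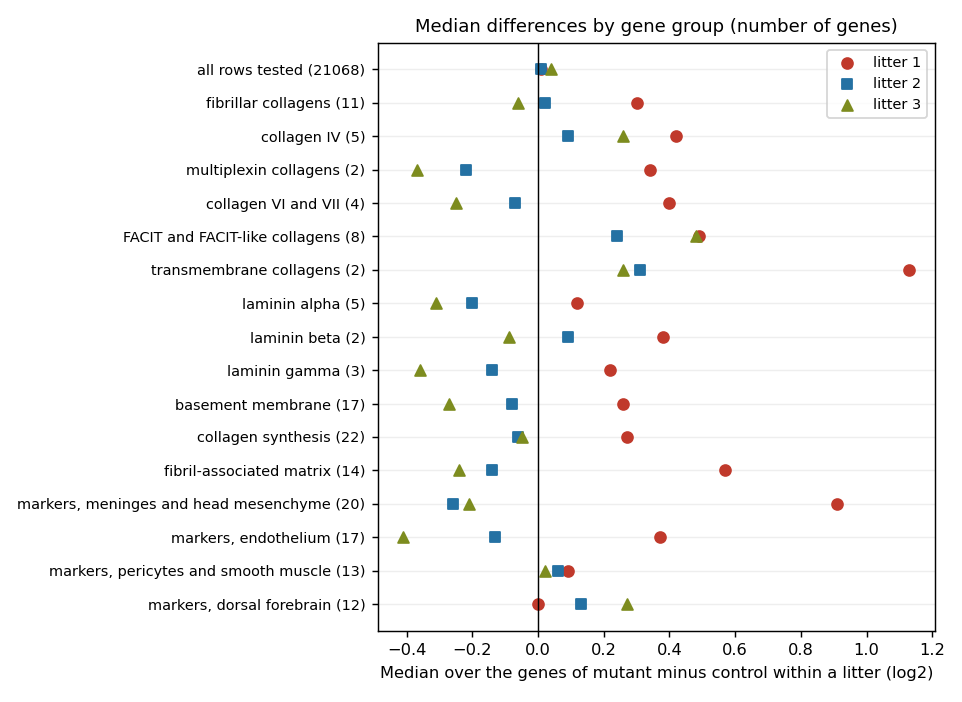
Median over the genes of a group of the mutant minus control log2 difference within a litter (red circles litter 1, blue squares litter 2, green triangles litter 3), with the number of measured genes in brackets and no error bars, since a litter holds 1 embryo of each group. The medians of meninges and head mesenchyme markers (0.91, -0.26 and -0.21) and of endothelial markers (0.37, -0.13 and -0.41) split by litter in the same direction as those of the multiplexins, collagens VI and VII and laminin alpha chains, while those of pericyte and smooth muscle markers and of FACIT-type collagens lie above 0 in all 3 litters.

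Genes that work with collagens and laminins were taken from lists of 88 symbols, older names included, of which 77 were measured. None passed the test over all genes (limma, 0 of 77), and at an unadjusted p under 0.05 there were 7 higher (Ntn4, P4ha1, P4ha3, Loxl2, Loxl3, Bcam and Mmp14) and 4 lower (Nid2, Npnt, Pcolce2 and Colgalt1), no larger a share than over all rows (9.5% and 7.44%). Their median differences in litters 1, 2 and 3 were 0.27, -0.03 and -0.08, and 31 of the 77 were higher in litter 1 and lower in the others, where 11.7% of all rows were. Among 17 basement membrane partners, Ntn4, a laminin-related protein that caps laminin networks, was at -3.70, -4.0 and -4.02 in the controls, against -3.48, -3.26 and -3.19 in the mutants. All mutants were above all controls, with a difference of 0.60 (SE 0.13, limma, adjusted p = 0.154), or 0.33 with normexp. Nid2, a nidogen that links laminin to type IV collagen, was at 0.52, 0.70 and 0.73 in the controls, against 0.34, 0.25 and -0.19 in the mutants, all below the controls, with a difference of -0.52 (SE 0.16, limma, adjusted p = 0.217). Npnt, a ligand of integrin alpha 8 in basement membranes, differed by -0.49 (SE 0.20).

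Collagens are hydroxylated, folded, trimmed and cross-linked by a set of enzymes, and 22 genes of this kind were measured. Pcolce2, an enhancer of the protease that trims fibrillar procollagens, was at -2.02, -1.75 and -1.77 in the controls, against -2.38, -2.55 and -2.58 in the mutants. The groups did not overlap, and the difference was -0.66 (SE 0.11, limma, unadjusted p = 0.000905, adjusted p = 0.105). Loxl3, a lysyl oxidase-like cross-linking enzyme, was higher by 0.42 (SE 0.11) and P4ha1, a prolyl hydroxylase subunit, by 0.41 (SE 0.13), each in all 3 litters and neither past the adjusted threshold (limma, adjusted p = 0.197 and 0.223).

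Of 14 measured proteins that bind or space fibrils, none was past an unadjusted p of 0.05. Dcn, the proteoglycan decorin that spaces collagen fibrils, differed by -0.56 (SE 0.31), Thbs1, a matricellular protein, by 0.56 (SE 0.32) and Fmod, a proteoglycan of tendon fibrils, by 0.61 (SE 0.66). The class medians were 0.57, -0.14 and -0.24 in litters 1, 2 and 3, the same direction as for the mesenchyme markers. Among 15 receptors, Bcam, a receptor of the laminin alpha 5 chain, was at -4.64, -4.83 and -5.32 in the controls, against -3.86, -4.44 and -4.56 in the mutants. All mutants were above all controls, with a difference of 0.64 (SE 0.25, limma, adjusted p = 0.289), or 0.27 with normexp, and its ligand chain Lama5 lay the other way. Itgb4, the integrin beta chain that binds laminin-332, differed by 0.34 (SE 0.15) and Adgrg1, the receptor of type III collagen, by 0.22 (SE 0.12). Of 9 proteases and inhibitors, Mmp14, a membrane-bound collagenase, was at -1.48, -1.52 and -1.63 in the controls, against -0.64, -1.04 and -1.09 in the mutants. The groups did not overlap, and the difference was 0.62 (SE 0.14, limma, adjusted p = 0.160), or 0.55 with normexp. Mmp11, another metalloproteinase, differed by 0.17 and Adamts1, a protease of proteoglycans, by 0.30.

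The brightness of a probe and its difference were related over all rows. In the 5267 dimmest rows, with mean levels of -7.64 to -4.16, the median difference was 0.15, and in the 5267 brightest rows it was -0.02. With normexp background correction, whose offset of 50 draws low signals together, followed by quantile normalization, these medians were 0.00 and -0.02. The part of each step was not tested. The dimmest rows held 12 of the 43 genes, whose median difference was 0.36. All mutants lay above all controls for 5 of these 12, where this held for 15% of the dimmest rows. These 5, Col5a3, Col9a3, Col12a1, Col20a1 and Col25a1, had differences of 0.35, 0.47, 1.91, 0.67 and 1.21. With normexp their differences were 0.09, 0.09, 0.81, 0.15 and 0.61. After normexp 5 genes were higher with an unadjusted p under 0.05 (11.6%, where 7.43% of all rows were), namely Col4a5, Col11a1, Col12a1, Col25a1 and Lamb2, and Lama5 was again the 1 lower gene (2.33%, where 9.36% were). The brightest rows held 9 genes, Col1a1, Col1a2, Col2a1, Col3a1, Col4a2, Col18a1, Lama1, Lamb1 and Lamc1. For none of these 9 did all mutants lie above all controls, which held for 9.83% of the brightest rows, so that a count of 0 among 9 genes is close to that background.

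**Figure D4:**
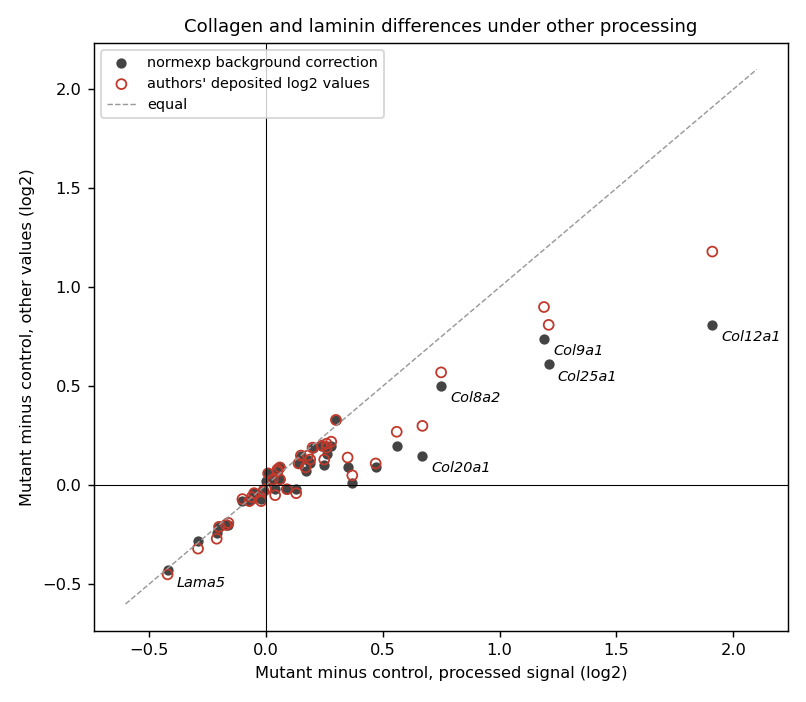
Mutant minus control log2 difference of each of the 43 genes with the processed signal (horizontal axis) against the difference with normexp background correction (filled circles) and with the log2 values of the authors' deposited table (open circles); the dashed line marks equal values. Lama5 and the genes near 0 lie on or near the line, and Col12a1, Col25a1, Col9a1, Col8a2 and Col20a1 lie below it.

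A second measured probe was present for 13 of the genes, and the probes of Col4a4 (0.37 and -0.08) and of Lama2 (0.03 and -0.05) had mean differences of opposite sign. Those of Col15a1 were 0.00, -0.16 and -0.17. The litter split was also seen on the other probes of Col18a1 (0.17, -0.16 and -0.44), Lama2 (0.67, -0.22 and -0.61) and Col23a1 (0.54, -0.28 and -0.84, and 0.70, -0.14 and -0.64). It was not seen on the other probes of Col15a1 (-0.38, 0.22 and -0.32, and -0.21, 0.23 and -0.53), which were above background on 5 and 4 arrays, nor on those of Col16a1. The high value of Col9a1 in litter 1 was 0.12 on its other probe, and Col20a1 differed by 0.62 on its other probe, with -0.28 in litter 1. In the authors' deposited table, an fdr is given for 32 of the 44 genes in the comparison of mutant with control, none is under 0.05, and the smallest is 0.06067, for Col12a1. The authors' deposited table gives log2 ratios of 1.18 for Col12a1, 0.81 for Col25a1 and -0.45 for Lama5, with fdr values of 0.06067, 0.08779 and 0.07977.

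Probe positions are those of the array annotation on mm9, and which exon or untranslated region each probe lies in was not used here. The probe of Col12a1 lies at chr9:79446895-79446954, that of Col25a1 at chr3:129885684-129885743, that of Col20a1 at chr2:180752070-180752129 and that of Lama5 at chr2:179911079-179911138. The probes of Col4a1 and Col4a2 lie at chr8:11199009-11199068 and chr8:11448840-11448899, and those of Col1a1 and Col1a2 at chr11:94813115-94813174 and chr6:4490619-4490678.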

How the data were processed

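RNA of 3 control and 3 mutant embryos was hybridised to 6 arrays (Agilent design 026655), and per the file headers the authors extracted each spot's intensity with Feature Extraction 10.7.3.1 on an mm9 grid. The deposited intensity is the processed signal, background-subtracted and linear, per the file headers, with 0 or 1 flags (a score) for spots well above background. The authors' deposited table gives log2 values per group, a log2 ratio and its linear ratio, a p-value and an fdr. The submitters' processing notes name limma, without version or role. The numbers of the table's columns do not follow those of the arrays, so they were used by group.

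Repeated spots were averaged per probe without outlier spots, and log2 signals were scaled by each array's 75th percentile. A probe was kept if 3 or more of the 6 arrays had it well above background (26849, with 92 left out for a missing value), and the brightest probe of a gene was used (21068 rows). Probes were named through their accession in RefSeq GRCm38.p6, or by the table's symbol. Groups were compared with limma 3.58.1 in R 4.3.3 (two-sided, Benjamini-Hochberg threshold 0.05), and figures were drawn with matplotlib 3.10.9 in Python 3.11.15 (pandas 2.3.3, numpy 2.4.6). Tested on simulated data, 21068 rows with 200 changed gave 74% of changes of 1 and 91% of changes of 2 on the log2 scale, with 13 false calls. The simulated noise was independent between rows and held no litter or slide effect, so these rates need not hold for the embryos measured.

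Litters, from the titles, pair the samples: the deviations of littermates from their group means had correlations of 0.308, 0.357 and 0.107, and those of other pairs -0.41 to 0.109. Alternatives were normexp, quantile normalization, median centring, no filter or all arrays in the filter, a block for slide or for litter, averaging all probes of a gene, a robust variance trend, the authors' log2 values and leaving out each embryo. Normexp used the median signal and median background with an offset of 50, and quantile normalization between arrays followed it. The genes and lists were chosen with earlier results of these data known. Values in all samples are given for the 4 genes of smallest p in each class, every gene whose groups do not overlap, Col1a1, Col1a2, Col4a1 and Col4a2, and named partners and markers are the 3 of smallest p in each list. Col3a1, Foxc1, Twist1 and other genes named only for a count were chosen after their values were seen. Values of 1 gene that the rule found and of 1 marker are not reported here, though both are in the counts and medians. The embryos are separate animals, per the labels, and p-values measure the spread between them.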

Additional observations from a re-analysis of the deposited data

How the results depend on the processing

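No collagen, laminin or partner gene passed the adjusted threshold in any of the 17 alternatives run, and the smallest adjusted p of a collagen or laminin gene was 0.0771 (limma), without mutant 1. With litter as a block (replicate block) 0 of 21068 rows passed, 7 collagen and laminin genes were higher and 2 lower at an unadjusted p under 0.05, and the block changed no other call. The count of higher genes at that p (9) was 5 with normexp (7.43% of all rows), 5 with quantile normalization (6.84%), 4 without litter 1 (added after seeing the data), 4 by the column of current symbols alone (also added), and 4 to 8 with an embryo left out, 5 without control 1 (8.22%) and 4 without control 3 (5.13%). Without litter 1 the share of the 43 genes was thus below that of all rows for higher genes, and above that of all rows (6.75%) for lower genes. The count of lower genes (1) was 2 with no filter (4.31% of all rows), 2 with slide as a block (7.91%), 4 without litter 1 (6.75%), 0 by that column, and 1 to 4 with an embryo left out, 4 without mutant 1 (8.71%) and 2 without mutant 2 (6.04%). Genes with all mutants above all controls (10) were 6 with normexp, 6 with quantile normalization, 4 by that column, and 10 to 14 with an embryo left out. Those below (1) were 2 each with median centring, no filter, normexp and the authors' values, 8 without litter 1, 0 by that column, and 1 to 6 with an embryo left out, 6 without mutant 1 and 2 without control 1 or mutant 2. With fewer embryos the groups of any row separate more readily. The shares of all rows above and below are not given for these alternatives, so changes in these counts are not read as a result about these genes. Genes higher in every litter (14) were 9 with quantile normalization, and those with the split pattern (17) were 21. That column holds 19 of the 44 genes, of which 5 were higher in every litter, 1 was lower in every litter and 9 had the split pattern. The shares of all rows are not given for these counts either, so they are not read as a result about these genes. The median difference of the genes was -0.01 to 0.27 with an embryo left out, and without the filter the median of all rows was 0.11.

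Signs turned as follows in the genes chosen by rule, and the cause was not tested. With normexp, Col15a1 was at 0.02 and Lama3 at -0.02, and Lama3 was at -0.04 with quantile normalization and -0.02 with the authors' values. Col1a1 was at -0.03 with median centring. Without litter 1, Col1a1 was at -0.21, Col1a2 at -0.20, Col4a1 at -0.19, Col4a2 at -0.05, Col6a2 at -0.02, Col7a1 at -0.01 and Lamb1 at -0.20. With an embryo left out, differences ranged from -0.27 to 0.14 for Col15a1, -0.51 to 0.36 for Col1a1, -0.44 to 0.40 for Col1a2, -0.45 to 0.24 for Col23a1, -0.09 to 0.19 for Col4a1, -0.01 to 0.29 for Col4a2, -0.34 to 0.30 for Col6a1, -0.13 to 0.42 for Col6a2, -0.66 to 0.18 for Col6a3, -0.03 to 0.23 for Col7a1, -0.09 to 0.24 for Lama3, -0.14 to 0.06 for Lama4, -0.14 to 0.24 for Lamb1 and -0.41 to 0.13 for Lamc3. Among the other genes, Col11a2 and Col24a1 were each at -0.02 with normexp, and at -0.05 and -0.04 with the authors' values. Without litter 1, Col14a1 was at -0.08, Col16a1 at -0.01 and Lama2 at -0.28. With an embryo left out, Col3a1 ranged from -0.42 to 0.28, Col5a1 from -0.19 to 0.13, Col11a2 from -0.01 to 0.14, Col16a1 from -0.28 to 0.33 and Lama2 from -0.32 to 0.31. Col12a1 (1.54 to 2.27), Col25a1 (0.94 to 1.52), Col20a1 (0.61 to 0.75), Lamb2 (0.17 to 0.22) and Lama5 (-0.51 to -0.35) kept their sign. Among the dimmest genes, Col4a4 (0.37), Col9a3 (0.47) and Col5a3 (0.35) were at 0.01, 0.09 and 0.09 with normexp, and the cause was not tested.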
